A study of Danio rerio with 6 samples.

Results

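The genes described here, under 6 names, act on RNA after transcription and were followed in early zebrafish embryos with and without Dgcr8. They cover microRNA production (dicer1), nonsense-mediated decay (upf3b), splicing (srrm1 and puf60b) and other RNA binding (matr3l1.1 and unk). They were taken by gene name from the deposited expression table, and because the name matr3l1.1 stands on 2 rows they make up 7 of its 99 rows. RNA was sequenced from whole AB-strain embryos collected 4.5 hours after fertilization, with the blastoderm at 30% epiboly. The 3 wild-type libraries and the 3 MZdgcr8 libraries were each made from 50 pooled embryos. MZdgcr8 embryos lack both maternal and zygotic Dgcr8; the labels do not name the allele, and they give no treatment for either group.

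Canonical microRNAs are made in consecutive cuts. Drosha, guided by Dgcr8, releases a hairpin from the primary transcript in the nucleus, and Dicer, the product of dicer1, trims that hairpin to the mature duplex in the cytoplasm. In zebrafish at the onset of zygotic transcription the miR-430 family is the dominant product of this route and promotes the removal of many maternal messages. The other genes act elsewhere on RNA. Upf3b joins the exon junction complex to the Upf decay factors, Srrm1 is an SR-related splicing coactivator, and Puf60b is the counterpart of a human protein that binds polyuridine tracts and helps to recruit the splicing machinery. The matrin 3 family consists of nuclear RNA- and DNA-binding proteins with zinc fingers, and the mammalian protein Unkempt, the counterpart of unk, is a zinc-finger protein that binds messages in the cytoplasm and affects their translation.

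Levels are in FPKM, fragment counts that the authors corrected for the length of the transcript and the depth of the library. All 7 rows had a mean of at least 1 FPKM, the minimum for testing, which 67 of the 99 rows reached. Counts for these 7 rows ran from 239 to 60707 per library, and relative library depth from 0.797 to 1.14. Replicate 3 stood apart in both genotypes, with log2 levels that correlated at 0.801 to 0.901 with those of replicates 1 and 2, which correlated with each other at 0.996 in each genotype. Results are therefore given over all libraries and for replicates 1 and 2 alone. Nothing in the labels says that the replicates are separate clutches, and the p-values cover only the scatter of these libraries, possibly technical. Of the cell type markers, the table held 1 of 9 for the enveloping layer (krt97) and 1 of 5 for the yolk syncytial layer (slc40a1), and the germ cell and blastomere lists had 0. The keratin gene krt97 was at 144.6, 143.6 and 301.7 FPKM in wild-type replicates 1, 2 and 3 and at 31.1, 26.9 and 331.1 FPKM in MZdgcr8. It was not called between genotypes over all 6 libraries (log2 -0.60, adjusted p = 0.898; with the replicate block -1.54, 0.150) but was called in the other comparisons below: log2 -2.31 between genotypes in replicates 1 and 2 (1.08e-05), 2.47 in replicate 3 against the others (0.0111) and 2.45 for the interaction (6.34e-05, all in edgeR). Its part in the results was not tested. The level of slc40a1 was at most 0.371 FPKM, below the minimum for testing. In bulk RNA, fewer cells expressing a gene and less RNA per cell cannot be told apart.

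The 7 rows spanned a wide range of levels. In wild-type replicate 1 the order was srrm1, puf60b, matr3l1.1 (ENSDARG00000000394), matr3l1.1 (ENSDARG00000001162), upf3b, dicer1 and unk. By mean FPKM over the 6 libraries srrm1 ranked 3 of 99, puf60b 5, the matr3l1.1 rows 6 and 7, upf3b 25, dicer1 28 and unk 52. The order was the same in wild-type replicate 2. In replicate 3 of both genotypes ENSDARG00000000394 came first, and in all 3 MZdgcr8 libraries dicer1 stood above upf3b. In wild-type embryos srrm1 and puf60b were separated in level by more than their spread, while ENSDARG00000000394 overlapped both and was not separated from either.

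**Figure D1:**
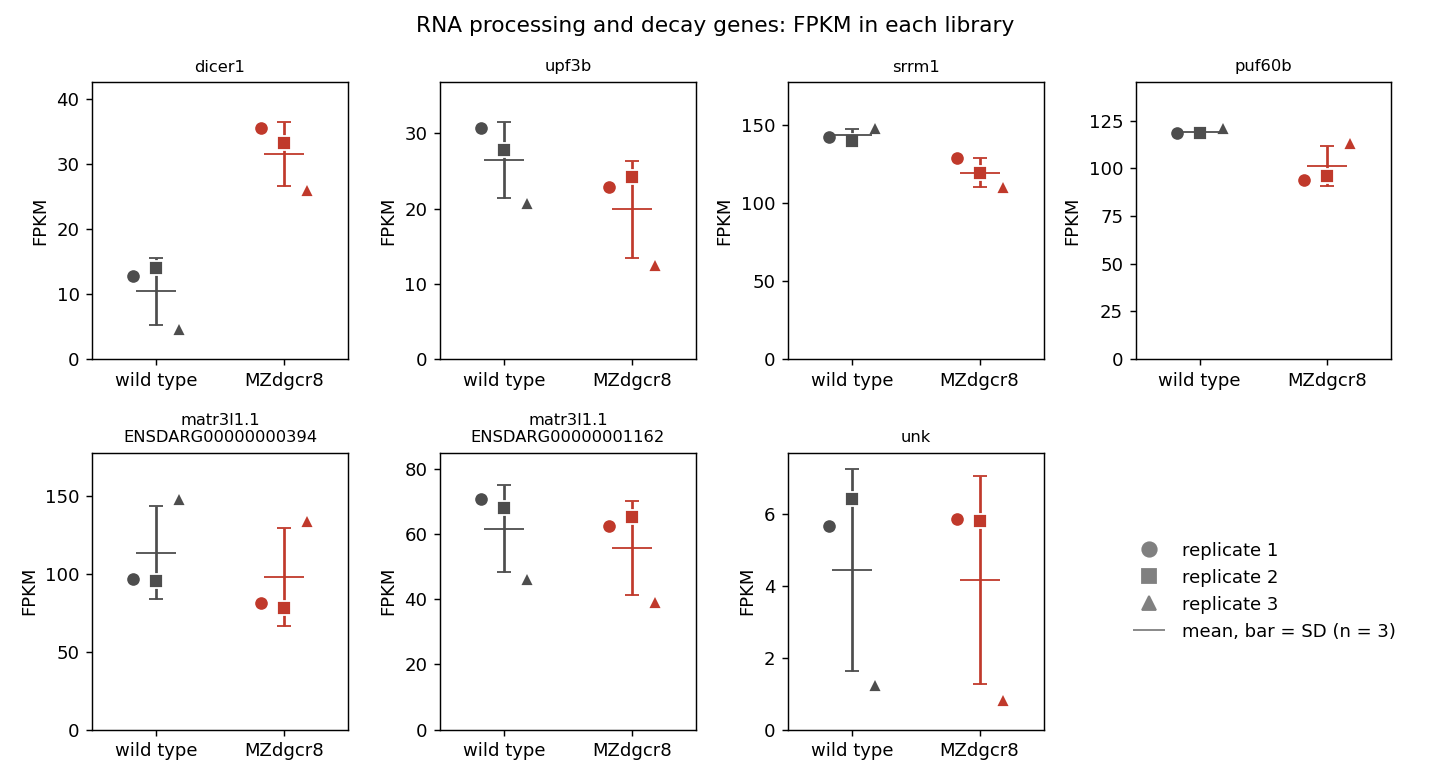
Level of each gene (vertical axis, FPKM, from 0, its own scale in each panel) in the 3 wild-type (gray) and 3 MZdgcr8 (red) libraries; marker shape gives the replicate, the horizontal dash the mean and the bar the SD. The MZdgcr8 values of dicer1 (25.99 to 35.5 FPKM) lie above all wild-type values, those of srrm1 and puf60b lie below, and the triangle of replicate 3 is far below its group for unk and above it for ENSDARG00000000394.

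The transcript of dicer1 was more abundant in MZdgcr8 embryos in every pair of libraries. Wild-type embryos had 12.8, 14.0 and 4.57 FPKM in replicates 1, 2 and 3, and MZdgcr8 embryos had 35.5, 33.2 and 25.99 FPKM. The groups did not overlap (8.96% of tested genes were higher without overlap), and the lowest wild-type value was that of replicate 3. Taken by replicate number, the ratio of MZdgcr8 to wild type was 2.77, 2.37 and 5.68. The larger ratio of replicate 3 came with a wild-type level that was 2.94-fold lower than in replicates 1 and 2, while the MZdgcr8 level was 1.32-fold lower.

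Over all 6 libraries dicer1 was 3.01-fold higher in MZdgcr8 (log2 1.59 ± 0.44 SE), rank 3 of 67 from the top, but the adjusted p was 0.559 in edgeR's quasi-likelihood test without a block. In that test 0% of the genes passed (0 of 67, with 5 at an unadjusted p under 0.05 and 7 called by DESeq2 with its own size factors). With the replicate number as a block, 7.46% of genes passed, all of them higher, and dicer1 was the 1 of the 7 rows among them (3.33-fold, log2 1.73 ± 0.29 SE, adjusted p = 0.0427 in edgeR). The blocked value was 1.87 without replicate 1 (adjusted p = 0.0401), 1.99 without replicate 2 (4.89e-06) and 1.36 without replicate 3 (0.0125), each in edgeR. The fits without replicate 1 or 2 were chosen after seeing the data. That without replicate 3 was the same as the planned fit of replicates 1 and 2 with the block. The 3 fits called 4, 8 and 35 of the 67 genes in turn. So few libraries were left that their p-values lean on scatter shared across genes and do not rank the fits. In the planned fits without a block that left out 1 library, dicer1 was never called (log2 1.23 to 1.86, adjusted p = 0.124 to 0.961 in edgeR). Nor was it called with the block when genes below the expression minimum were kept in (adjusted p = 0.0783 in edgeR). That setting, also chosen after seeing the data, called 0 of 99 genes. With replicate set as a term in place of the block (a choice made after seeing the data), 38.8% of genes were called, 16.4% higher and 22.4% lower, and of the 7 rows dicer1 was called higher (adjusted p = 0.0145 in edgeR) and 4 were called lower (upf3b, srrm1, puf60b and ENSDARG00000000394). An exact two-sided permutation test on FPKM gave p = 0.1 for dicer1, and also for srrm1 and puf60b. This is the smallest that 3 against 3 libraries can give, and it follows from the lack of overlap between the groups.

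Within replicates 1 and 2, dicer1 rose 2.56-fold (log2 1.36 ± 0.07 SE, adjusted p = 2.27e-05 in edgeR), where 64.2% of the tested genes were called, 23.9% higher and 40.3% lower. The increase was called under each of the 11 alternatives run for these libraries, at log2 0.82 to 1.50. The log2 difference in replicate 3 was above that in replicates 1 and 2 by 1.15 ± 0.11 SE (interaction of genotype and replicate set, adjusted p = 0.00046 in edgeR), in a test that called 41.8% of genes. With a single replicate 3 library in each genotype, only replicates 1 and 2 contribute to the error of that term, and its p-value holds no measure of how far replicate 3 libraries would vary.

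A ratio between genes within a library does not depend on the scaling of libraries. The FPKM ratio of dicer1 to upf3b was 0.419, 0.506 and 0.22 in wild-type replicates 1, 2 and 3. In MZdgcr8 it was 1.55, 1.37 and 2.07. The genotypes did not overlap in this ratio, and dicer1 passed from below upf3b to above it in all 3 pairs. Against srrm1 the change went the same way: srrm1 exceeded dicer1 by 11.1, 9.96 and 32.3 times in wild type, and by 3.64, 3.58 and 4.25 times in MZdgcr8. Both upf3b and srrm1 were themselves lower in MZdgcr8 in all 3 pairs, so these ratios include that change. The ratio of dicer1 to unk was 2.27, 2.19 and 3.70 in wild type. In MZdgcr8 it was 6.06, 5.73 and 31.1, the last with unk at 0.835 FPKM.

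**Figure D2:**
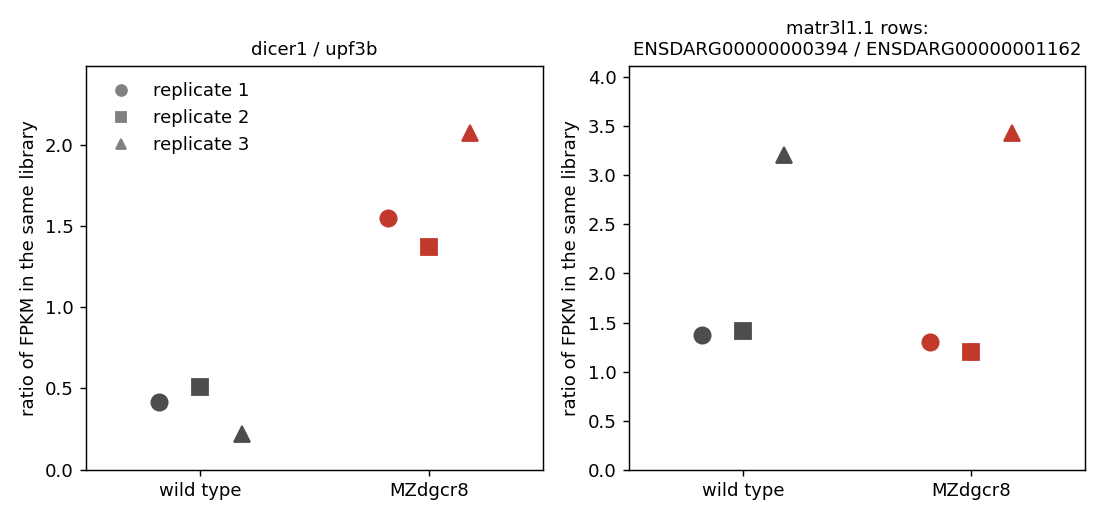
Ratio of FPKM between a pair of rows in the same library (vertical axis, no unit, from 0) for dicer1 over upf3b (left) and for the rows ENSDARG00000000394 over ENSDARG00000001162 of matr3l1.1 (right), with marker shape giving the replicate. The left ratio separates the genotypes (0.22 to 0.506 against 1.37 to 2.07); the right one separates replicate 3 (3.20 and 3.43) from the other libraries (1.195 to 1.41).

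The other rows differed less between genotypes. Over all 6 libraries at the authors' depth, none of them was called in the edgeR test without a block or with the replicate block. With replicate set as a term, the choice made after seeing the data, 4 of them were called lower, where 22.4% of all genes were. Of the 7 rows, 5 were lower in MZdgcr8 in 3 of 3 pairs, which 43.3% of all tested genes also were, and 1 (dicer1) was higher in 3 of 3 pairs (19.4% of tested genes). The median log2 difference over the 7 rows was -0.21 in the fit of all libraries, and over all 67 genes it was -0.16. In replicates 1 and 2 the edgeR test called 5 of the 7 rows lower and 1 higher, against 40.3% and 23.9% of all genes. With the replicate block it called 2 lower (puf60b and ENSDARG00000000394) and 1 higher, where 52.2% of all genes were called, 22.4% higher and 29.9% lower. The number also changed with the scaling of libraries: with TMM 1 row was called lower (puf60b) and 1 higher, and with equal library medians 6 lower and 1 higher. The median of all 67 genes moved with it, from -0.15 at the authors' depth to -0.05 with TMM and -0.69 with equal medians. The split of all calls, 16 higher and 27 lower at the authors' depth, became 21 and 20 with TMM and 11 and 52 with equal medians.

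**Figure D3:**
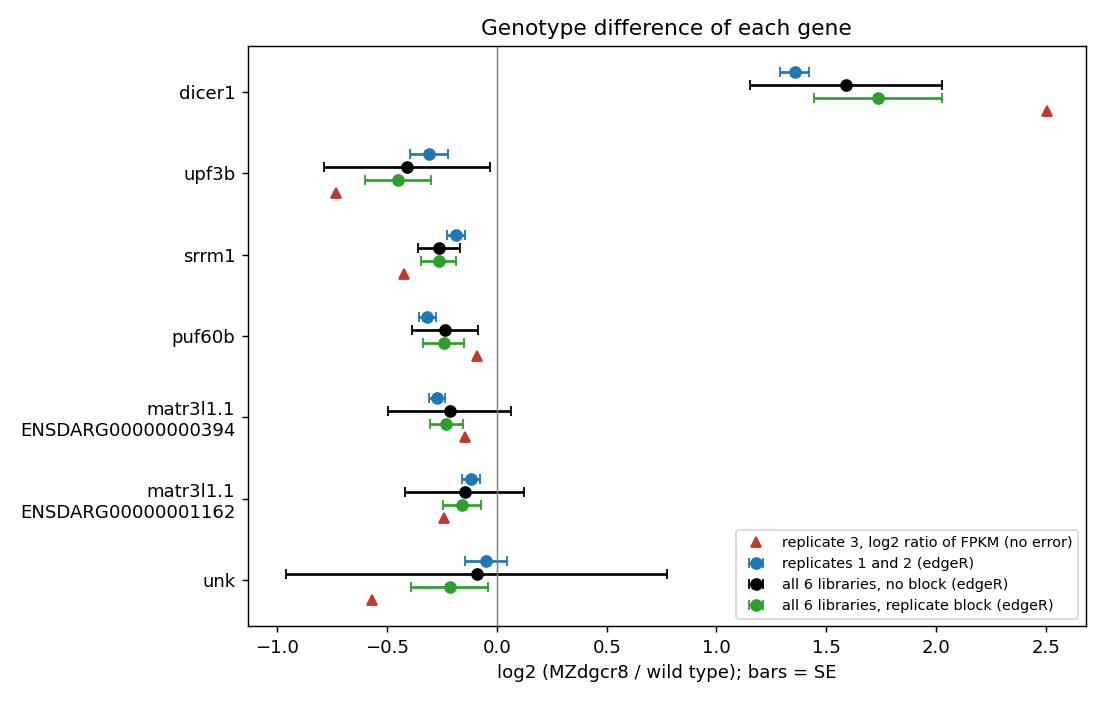
Log2 ratio of MZdgcr8 to wild type (horizontal axis) for each row in the edgeR fits of replicates 1 and 2 (blue), of all 6 libraries without a block (black) and with the replicate block (green), with bars of 1 SE, and the FPKM ratio of replicate 3 (red triangle, no error). For dicer1 the values run from 1.36 to 2.51, and the other rows lie at or below 0 and above -0.75.

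The decay factor gene upf3b had 30.6, 27.7 and 20.8 FPKM in wild-type replicates 1, 2 and 3. In MZdgcr8 it had 22.9, 24.2 and 12.5 FPKM. It was lower in MZdgcr8 in each pair, by 25.3%, 12.6% and 39.8%, but the groups overlapped because wild-type replicate 3 was below MZdgcr8 replicates 1 and 2. The means were 26.4 ± 5.05 and 19.9 ± 6.40 FPKM (SD, n = 3 each). In replicates 1 and 2 it fell by 0.31 on the log2 scale (± 0.09 SE, adjusted p = 0.0209 in edgeR). That call was lost with the replicate block (adjusted p = 0.0705), with TMM, with DESeq2, and without wild-type replicate 1 (log2 -0.24, 0.0696) or MZdgcr8 replicate 1 (-0.27, 0.125). Over all 6 libraries the value was -0.41 ± 0.38 SE with no call.

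The splicing coactivator gene srrm1 had the highest mean level of the set. Wild-type replicates 1, 2 and 3 held 142.5, 139.9 and 147.8 FPKM, and the matching MZdgcr8 libraries 129.2, 119.1 and 110.4 FPKM. The groups did not overlap, and each MZdgcr8 library was lower than its partner, by 9.32%, 14.8% and 25.3%. The edgeR difference over all libraries was log2 -0.26 ± 0.10 SE, without a call (unadjusted p = 0.0311, adjusted p = 0.559). In replicates 1 and 2 the gene fell by 0.19 on the log2 scale (± 0.04 SE, adjusted p = 0.00711 in edgeR), a call that the replicate block (adjusted p = 0.0509), TMM (0.309), DESeq2 and limma did not give. Without wild-type replicate 1 (log2 -0.17, adjusted p = 0.109) or replicate 2 (-0.20, 0.0721) it was not called in edgeR.

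Levels of puf60b were the steadiest of the set in wild type, at 118.4, 118.5 and 120.8 FPKM. In MZdgcr8 they were 94.1, 96.1 and 113.4 FPKM, all below the wild-type values. The means were 119.2 ± 1.39 and 101.2 ± 10.6 FPKM (SD, n = 3 each). Replicate 3 was the closest pair, 6.19% lower in MZdgcr8 against 20.5% and 18.9% in replicates 1 and 2. In those replicates puf60b fell by 0.32 on the log2 scale (± 0.04 SE, adjusted p = 0.000866 in edgeR), where 40.3% of all tested genes were called lower. The gene was called lower under each of the 11 alternatives (log2 -0.17 to -0.85), among them equal medians, where 52 of 67 genes were. The log2 difference in replicate 3 was nearer to 0 (interaction 0.22 ± 0.07 SE, adjusted p = 0.0368 in edgeR), but the interaction was not called with TMM (log2 0.058, adjusted p = 0.664), with limma (0.22, 0.117), or in edgeR without wild-type replicate 1 (0.23, 0.105) or 2 (0.22, 0.0961). For 5 rows, all but dicer1 and puf60b, the interaction did not pass in the main fit at the authors' depth (adjusted p = 0.0517 to 0.203 in edgeR). At that depth with no filter on low values it passed for 1 of them, with a negative value. The rows for which it passed also changed when 1 library was left out. With TMM it passed for dicer1, with a positive value, and for upf3b (-0.59), unk (-0.68), srrm1 (-0.40) and ENSDARG00000001162 (-0.29). The value of dicer1 was 0.98 to 1.34 over the 10 alternatives. With equal medians it passed for ENSDARG00000000394 (0.32), dicer1 and puf60b, all positive. The calls over all genes were 11 positive and 17 negative at the authors' depth, 9 and 27 with TMM, and 21 and 12 with equal medians. With srrm1 and dicer1, puf60b was 1 of 3 rows whose genotypes did not overlap, 1 higher and 2 lower, where 17.9% of all tested genes did not, 8.96% in each direction.

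The rows called matr3l1.1 behaved as different genes. The table of gene names gives ENSDARG00000001162 as matr3l1.1 and ENSDARG00000000394 as matr3l1.2, and in the RefSeq annotation of assembly GRCz12tu matr3l1.1 and matr3l1.2 are neighbors on chromosome 14. The sources used here do not say how reads shared between such paralogs were counted, and the separate levels are therefore uncertain.

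For ENSDARG00000000394 wild-type embryos had 96.8, 95.6 and 148.1 FPKM, and MZdgcr8 embryos had 81.3, 78.0 and 134.1 FPKM. For ENSDARG00000001162 the values were 70.7, 67.9 and 46.2 FPKM in wild type and 62.5, 65.3 and 39.1 FPKM in MZdgcr8. The genotypes overlapped for both rows, and replicate 3 was the highest library for the first and the lowest for the second. The ratio of the first to the second lay between 1.195 and 1.41 in replicates 1 and 2 of both genotypes and was 3.20 in wild type and 3.43 in MZdgcr8 in replicate 3, so replicate 3 stood apart from the other libraries in both genotypes on a measure that scaling does not touch. The sum of both rows ran from 143.3 to 167.5 FPKM in replicates 1 and 2 and was 194.3 and 173.1 FPKM in replicate 3. Between genotypes in replicates 1 and 2, ENSDARG00000000394 fell by 0.27 on the log2 scale (± 0.04 SE, adjusted p = 0.00129 in edgeR; not called with TMM, -0.17 and 0.0509, or DESeq2, -0.13 and 0.0759). ENSDARG00000001162 fell by 0.12 (± 0.04 SE, adjusted p = 0.0493 in edgeR; with the replicate block 0.165), a call also lost with TMM (-0.01), with limma, with no filter, and without wild-type replicate 1 (-0.09) or 2 (-0.15); with DESeq2 its value was 0.03.

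The unkempt gene unk had the lowest level of the set and showed no genotype difference that passed a test at the authors' depth. Wild-type embryos had 5.66, 6.41 and 1.24 FPKM, and MZdgcr8 embryos had 5.86, 5.80 and 0.835 FPKM. The means were 4.44 ± 2.80 and 4.17 ± 2.89 FPKM (SD, n = 3 each). Replicates 1 and 2 of both genotypes lay together and both replicate 3 libraries lay far below them. The difference between genotypes was log2 -0.05 ± 0.10 SE in replicates 1 and 2 (adjusted p = 0.656 in edgeR) and -0.09 ± 0.87 SE over all 6 libraries. With equal library medians unk was called lower in replicates 1 and 2 (-0.58), and with TMM its value was 0.06.

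The step between replicate 3 and the other replicates was large for some of these rows and small for others. With genotype in the model, edgeR called 77.6% of the tested genes, 14.9% higher and 62.7% lower in replicate 3, and 5 of the 7 rows, 1 higher and 4 lower. With the genotypes pooled, the replicate sets did not overlap for 4 rows, 1 higher (ENSDARG00000000394) and 3 lower (upf3b, unk and ENSDARG00000001162). Of all tested genes 71.6% did not overlap, 13.4% higher and 58.2% lower. The row ENSDARG00000000394 rose 1.61-fold (log2 0.69 ± 0.06 SE, adjusted p = 0.000559), and unk was 5.79-fold lower (log2 -2.53 ± 0.18 SE, adjusted p = 0.000491, both in edgeR). These 2 calls were made in the same direction under each of the 12 alternatives. The others were lower by log2 -0.94 ± 0.28 SE for dicer1, -0.69 ± 0.13 for upf3b and -0.65 ± 0.07 for ENSDARG00000001162 (adjusted p = 0.0301, 0.00611 and 0.000817 in edgeR). None of these 3 was called lower with TMM, equal medians or DESeq2, and with equal medians ENSDARG00000001162 was called higher (0.24, adjusted p = 0.0445 in edgeR). The call of dicer1 was also lost without wild-type replicate 1 (-0.90), wild-type replicate 2 (-0.85) or MZdgcr8 replicate 1 (-1.02). Its value was -0.40 without wild-type replicate 3 and -1.55 without MZdgcr8 replicate 3, both called. The values of srrm1 (-0.05 ± 0.07) and puf60b (0.14 ± 0.07) did not pass, and with TMM both were called higher (0.48 and 0.67). Without wild-type replicate 3, srrm1 was called lower (-0.17) and puf60b higher (0.25). The median of all tested genes was -0.78 at the authors' depth, -0.25 with TMM and 0.11 with equal medians, and the split of calls went from 10 higher and 42 lower to 19 and 27 with TMM and 29 and 18 with equal medians.

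**Figure D4:**
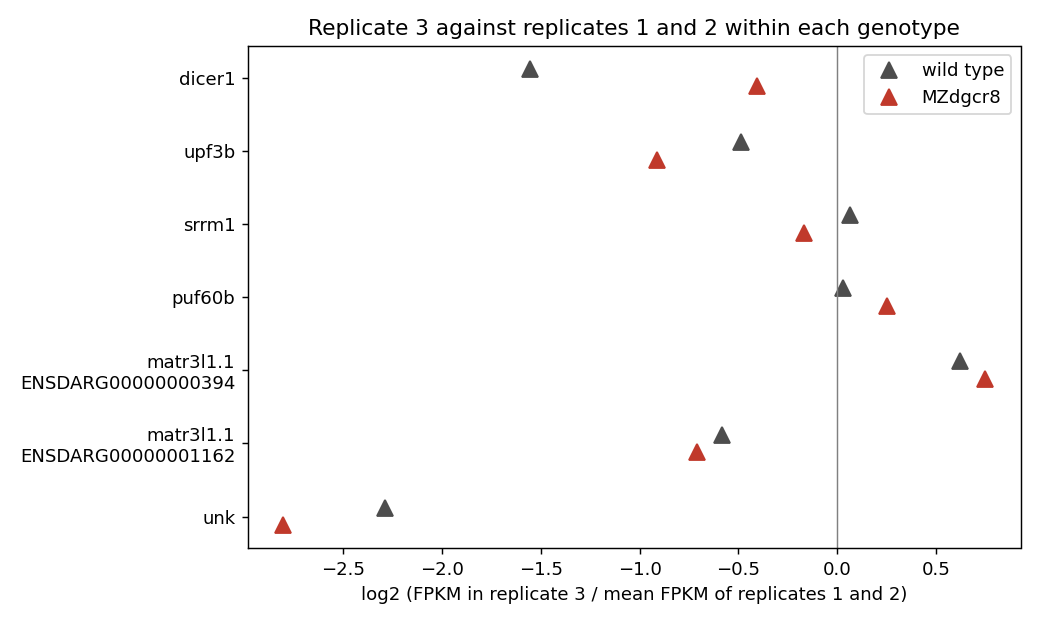
Log2 ratio of the FPKM of replicate 3 to the mean of replicates 1 and 2 (horizontal axis) for each row in wild type (gray) and MZdgcr8 (red), 1 value per genotype with no error. The shift of unk is -2.29 and -2.80, the matr3l1.1 rows move in opposite directions, and dicer1 has the widest gap between genotypes (-1.55 and -0.40).

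Levels that moved most like each row over the 6 libraries are given by Pearson's r of log2(FPKM + 1), as a description. The row ENSDARG00000000394 was most like bysl (r = 0.998) and dzip1 (0.995). For ENSDARG00000001162 they were sp3a (0.995) and slc17a6a (0.985), for unk slc17a6a (0.997) and adam8a (0.997), and for upf3b dap (0.973) and skap2 (0.956). For puf60b they were g2e3 (0.966) and osgepl1 (0.926), and for srrm1 snx9a (0.784) and myh10 (0.772). For dicer1 the closest was ptpn4b (0.963). Among the 7 rows themselves, unk and ENSDARG00000001162 (0.976) and upf3b and ENSDARG00000001162 (0.932) were the closest, while unk and ENSDARG00000000394 were opposed (-0.914). All of these values come from the same 6 libraries. Those of upf3b, unk and both matr3l1.1 rows, whose replicate sets did not overlap, share the step at replicate 3. That step was not called for puf60b and srrm1. For dicer1 it was called, and replicate 3 was the lowest library in each genotype (4.57 FPKM in wild type, 25.99 in MZdgcr8). Its replicate sets overlapped because they pool the genotypes, and MZdgcr8 replicate 3 was above wild-type replicates 1 and 2 (12.8 and 14.0 FPKM). The gene dicer1 was negatively related to puf60b (-0.816) and srrm1 (-0.779). These are the rows whose genotypes did not overlap, dicer1 being higher in MZdgcr8 and puf60b and srrm1 lower.

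**Figure D5:**
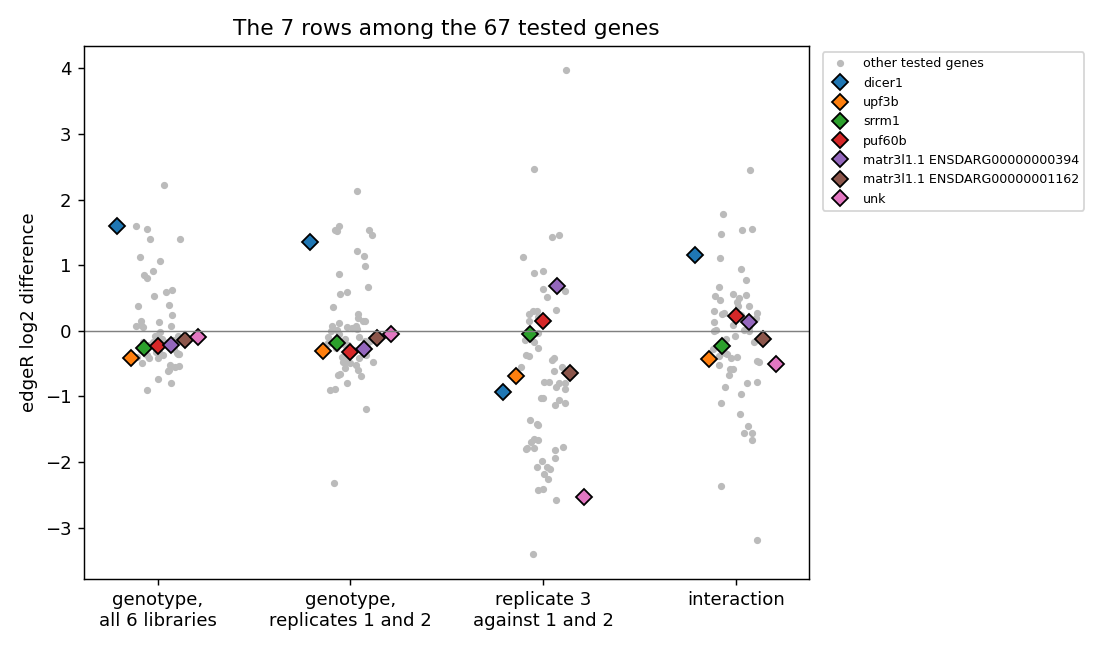
Log2 difference in edgeR (vertical axis) of the 7 rows (colored diamonds) and of the other tested genes (gray points, spread sideways at random) in the comparisons named on the horizontal axis. In the genotype comparisons dicer1 lies near the top (1.59 and 1.36) and the other 6 rows lie close to the median of all genes (-0.16 and -0.15), and unk is among the lowest values for replicate 3 (-2.53).

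The deposited annotation ties the rows together only in part. The mRNA surveillance and RNA transport pathways each hold upf3b and srrm1 and no other gene of the table, and the RNA binding term holds dicer1 and puf60b. The mRNA processing term holds puf60b and srrm1. Of the 9 rows under nucleic acid binding, 4 are of the set (upf3b, puf60b and both matr3l1.1 rows). Of the wider lists, the table held 1 of 24 microRNA genes, 1 of 23 nonsense-mediated decay genes, 2 of 69 splicing genes and 0 of 59 genes of deadenylation, decapping and the exosome. Each one found was already among the 6 names, so neither Drosha's transcript nor any other partner of these factors was analysed here. In the GRCz12tu RefSeq annotation the spans of dicer1 and upf3b each overlap that of 1 long noncoding RNA gene. Exons and strands were not compared, and the sources used here state no strand setting for the counting. Whether reads of the overlapping genes entered these counts is therefore not known.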

How the data were processed

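The authors deposited FPKM for each gene and library and counts for the same 99 genes, both named so in the file headers. The counts are whole numbers, and their headers do not say whether they were normalized. The submitters' processing notes list HISAT2 2.0, StringTie 1.3.0, Bowtie 0.12.2 and a mouse build, mm8, with no role for any. No zebrafish build or annotation is given in the sources used here, and no coordinates or sequences are printed. All 99 identifiers matched a table of gene names. The quasi-likelihood test of edgeR 4.0.16, run in R 4.3.3, was applied to the counts of the 67 genes whose mean FPKM was 1 or more. Library sizes were relative depths from the count to FPKM ratio of 58 genes, each over 200 counts in all libraries (largest deviation of a gene 0.0048 on the log2 scale). P-values are two-sided and Benjamini-Hochberg adjusted over all genes tested, with a threshold of 0.05. Standard errors are the log2 fold change over the root of F. No count value was 1, 2 or 3, so 1 count may not be 1 read, and no counting intervals are given. Alternatives were TMM, equal medians, no filter, counts divided by 4, limma 3.58.1 on log2(FPKM + 1), DESeq2 1.42.0, the removal of each library and the replicate block. The factors of TMM, of equal medians and of DESeq2 with its own size factors came from the 67 tested genes alone. Many of these genes differed between libraries.

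Same-numbered libraries deviated from their group means together (correlation over the 67 genes 0.77, 0.76 and 0.80 for replicates 1, 2 and 3), so the numbers were taken to pair the samples, as an inference from the data. The pairing rests on replicate 3, since wild-type replicate 1 with MZdgcr8 replicate 2 (0.71) and wild-type replicate 2 with MZdgcr8 replicate 1 (0.82) correlated as well. The genes, lists and tests were chosen with earlier results of these data known. All 7 rows are named, with the 2 genes most like each by Pearson's r, placeholder symbols passed over; 1 of these is not reported here.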

Additional observations from a re-analysis of the deposited data

Results flagged for a closer look

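For dicer1 the ratio of MZdgcr8 to wild type was 2.77 and 2.37 in replicates 1 and 2 and 5.68 in replicate 3, and an interaction term in edgeR gave 1.15 on the log2 scale. For puf60b the same term was 0.22 on the log2 scale, the decrease in replicate 3 being the smaller one. That call was lost in 4 of 10 alternatives, among them TMM, where the value was 0.058 (adjusted p = 0.664 in edgeR). Replicate 3 is 1 library per genotype, so the error of both terms comes from replicates 1 and 2 alone and does not show that the genotype difference would vary in this way among further libraries. The libraries of replicate 3 differed from the others for most genes of the table, and the part of that in either result was not tested.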

How the results depend on the processing

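Over all 6 libraries the edgeR test called 0 genes. The count was 7 with DESeq2 and its own size factors, dicer1 among them (log2 1.77, adjusted p = 6.1e-06), and 0 with DESeq2 at the authors' depth (dicer1 adjusted p = 0.0702). With the replicate block it was 5. Among settings chosen after seeing the data it was 4 with block and TMM, 43 with block and equal medians and 16 with the block in DESeq2. Among the same settings it was 5 with the block in limma and 0 of 99 with the block and no filter. It was 4 and 8 with the block without replicates 1 and 2, and 26 with replicate set as a term, all chosen after seeing the data. With the block and without replicate 3 it was 35, the same fit as the planned one of replicates 1 and 2 with the block. Leaving out 1 library gave 0 to 3 calls, the 3 without MZdgcr8 replicate 3. For replicates 1 and 2 this range was 39 to 40 calls, for the replicate 3 comparison 42 to 61 and for the interaction 29 to 34; where it left 1 library in a group, that library was assumed to vary like the others. In replicates 1 and 2 the replicate block changed the calls of upf3b, srrm1 and ENSDARG00000001162 and, of the 7 rows, no other.

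Some values changed sign. Between genotypes over all libraries, leaving out 1 library took ENSDARG00000000394 over -0.51 to 0.024, ENSDARG00000001162 over -0.32 to 0.053 and unk over -0.54 to 0.39. In replicates 1 and 2 unk was 0.059 with TMM and 0.092 with DESeq2 (-0.14 to 0.042 with 1 library left out), and ENSDARG00000001162 was 0.026 with DESeq2. For replicate 3 against the others, equal medians gave 0.19 for upf3b, 0.24 for ENSDARG00000001162 (called higher) and 0.83 for srrm1, which was 0.48 with TMM, 0.59 with DESeq2 and -0.17 to 0.066 with 1 library left out. The interaction was -0.037 for ENSDARG00000000394 with TMM and 0.062 for ENSDARG00000001162 with equal medians. The causes were not tested. The genotype difference of dicer1 kept its sign under all alternatives run.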
